A study of Bos taurus with 43 samples.

Results

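The genes described here handle or read the calcium signal of skeletal muscle: the voltage-gated calcium channels, the ryanodine receptors, calmodulin with the kinases it switches on, and the phosphatase calcineurin. Their probes were taken by name from the bovine array: every probe whose gene name began with CACN, RYR, CALM, CAMK or PPP3, or whose description held the words calcium channel, ryanodine receptor, calmodulin or calcineurin, with potassium channels left out. The rule used no measured value and found 104 of the 21475 probes, which carry 73 names. There were 29 probes for channel subunits, 7 for ryanodine receptors, 6 for calmodulins, 19 for calmodulin-dependent kinases, 12 for calcineurin and the NFAT factors, and 31 for other proteins described with these words.

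RNA from the biceps brachii of 43 male cattle had been hybridised in 1 colour, with 1 animal per array. The 4 positive animals were labelled as suspected of corticosteroid treatment. According to the study they came from the slaughterhouse, and they were classified as positive by thymus histology, with dexamethasone found in the urine. Dose and time of treatment were not given in the sources used here. Their labels are S21, S54, S56 and S57, and they are called P21, P54, P56 and P57 here, as in the study. The 21 unknown animals were commercial cattle from the slaughterhouse whose treatment was not known. Both sets were 12 to 24 months old and were mostly Charolais, Limousine or their crosses. The 5 cross-breed controls (K7, K8, K10, K11 and K12) were untreated Limousine × Charolais bulls of 18 months from a controlled experiment. The 13 Holstein controls were also untreated and were 13 to 18 months old. The study's principal component analysis (PCA) of the same arrays had placed the 13 Holstein controls in group 1, the 5 cross-breed controls and unknown animals 263, 265, 266, 269 and 270 in group 2, the 4 positive and 9 unknown animals in group 3, and the other 7 unknown animals in group 4. Because these groups were drawn from the same signals, values in them are given as a description, without a test.

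In a skeletal muscle fibre, an action potential in the transverse tubule moves the voltage sensor CACNA1S, the pore subunit of the dihydropyridine receptor, which is held in a complex with the subunits CACNB1, CACNA2D1 and CACNG1. The sensor opens the ryanodine receptor RYR1 in the facing sarcoplasmic reticulum, and the released calcium starts contraction until the ATP2A pumps return it to the store. Calcium bound to calmodulin also activates the CaM kinases and calcineurin, a phosphatase of a catalytic chain (PPP3CA, PPP3CB or PPP3CC) and a regulatory chain (PPP3R1). Calcineurin releases the NFAT factors to the nucleus and is best known in muscle for its link to the slow fibre programme.

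All values are log2 of the scanner's processed signal after cyclic loess normalization over the 43 arrays, and a change is the difference of group means on that scale, with its standard error (SE). A probe was tested only if its log2 signal was not under 4 on 30 or more arrays. A change was called where the limma adjusted p over all 16354 probes that passed was under 0.05 and the change was at least 2-fold. Of the 104 probes 75 passed: 15 channel probes, 5 ryanodine receptor probes, 4 calmodulins, 17 kinase probes, 11 calcineurin and NFAT probes and 23 others. Signals of different probes are not on a common scale and were not compared with each other. The number of arrays limits the precision. Positive animals had 74.95% to 89.4% of their spots well above background, a share that ran from 62.92% to 73.65% among cross-breed controls, from 62.34% to 73.22% among Holstein controls and from 40.21% to 97.29% among unknown animals. The P values measure the spread between these animals.

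The cross-breed controls were the only animals on scanners 1 and 2, and all others were on scanner 3. In both comparisons with them, group cannot be told apart from scanner, slide and scan day. The 5 unknown animals that the PCA had placed beside these controls in group 2 were scanned on scanner 3, and their values are given where they help to read a difference.

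The first comparison asked how the muscle of positive animals differed from that of untreated beef cattle. Of the 75 members 38 were called (50.7%), against 28.1% of all probes tested. Of these, 14 members were higher in the positive animals, where 14.4% of all probes were higher, and 24 were lower, where 13.8% were. The median change was -0.58 over the members and -0.03 over all probes. These counts depended on scaling and filter, which also moved all probes. In the main fit 51.1% of all calls were higher. With 75th percentile scaling 17 of 74 members were higher and 17 lower (median -0.17). Of all probes 4476 of 16078 were called, 69.1% of them higher. No filter on dim probes gave 29 and 30 of 104 (-0.33), with 7589 of 21475 probes called, 51.1% of them higher. A filter on signal well above background gave 29 and 23 of 88 (-0.063), with 5998 of 17986 called, 63.6% of them higher. The number of members that this filter tested depended on the groups compared. Normexp background correction gave 7 and 9 of 104 (-0.13), with 1375 of 21475 called, 59.9% of them higher. The median over all probes was 0.11, -0.03, 0.096 and -0.02 in this order, above that of the members each time. By class, among the channel subunits that passed the filter 1 probe was higher and 8 were lower, among ryanodine receptors 4 were higher and 1 was lower, among kinases 2 were higher and 6 lower, and among calcineurin and NFAT probes 1 was higher and 4 lower. The filter removed 14 of the 29 channel probes. Of these, CACNA1A, CACNA1C (A_73_113592), CACNA2D2, CACNA2D4, CACNG2 and CACNG3 were well above background in 4 of 4 positive animals and in 0 of 5 cross-breed controls, so that the split of this class holds only for the probes that passed. The ranges of the 4 positive animals and the 5 controls did not overlap for 48 members (14 above, 34 below), against 43.3% of all probes.

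**Figure D1:**
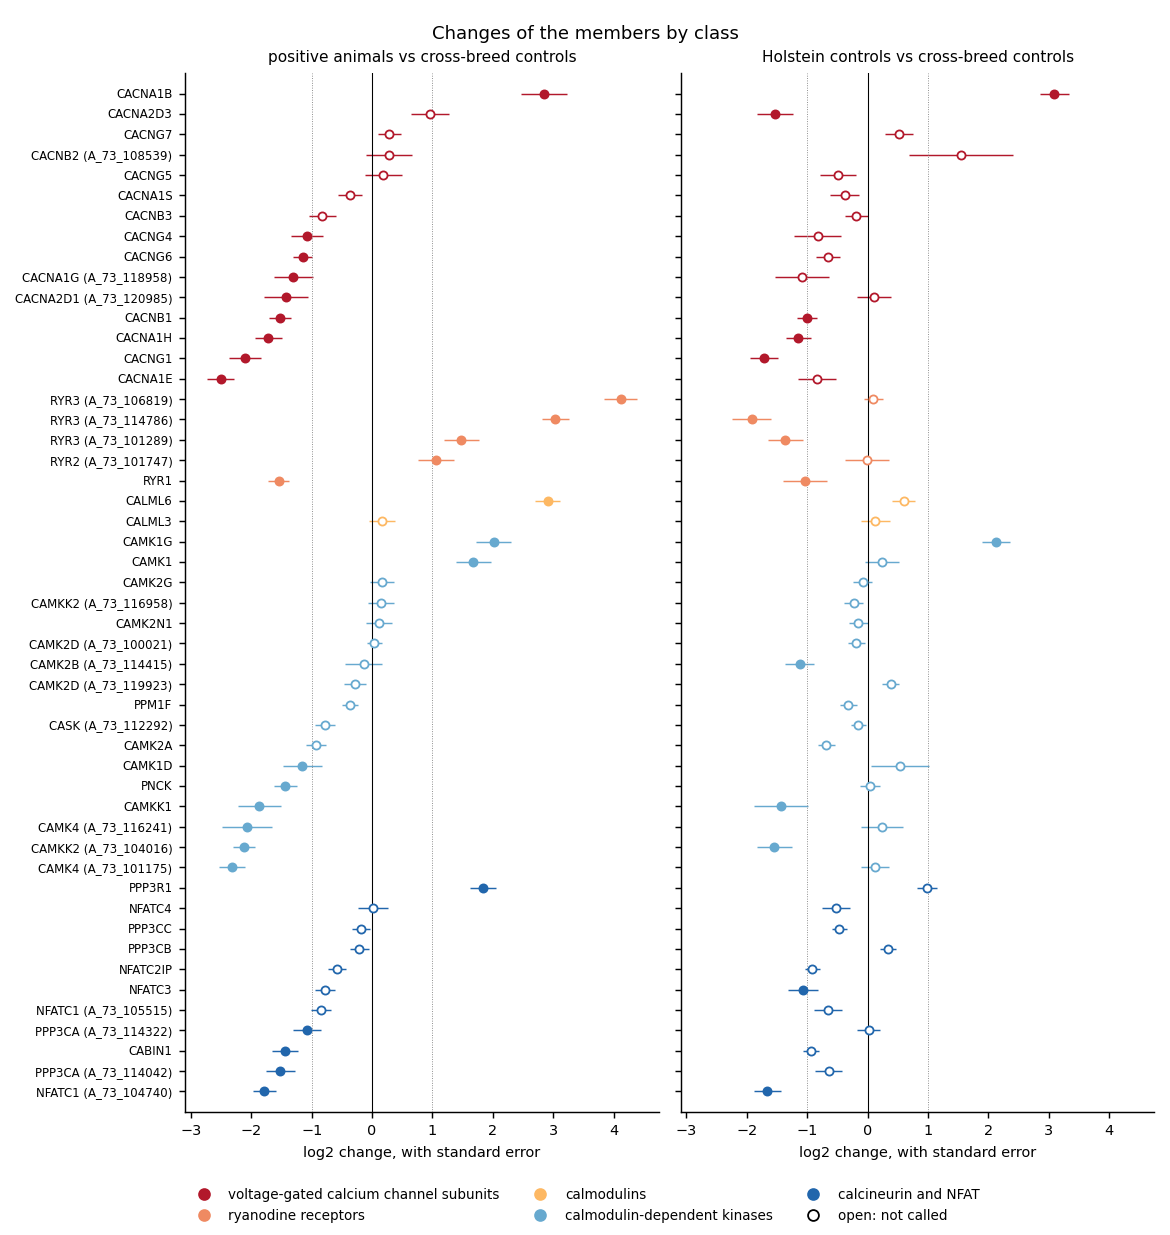
Log2 change of 50 members of the first 5 classes in positive animals (left) and in Holstein controls (right), each against the 5 cross-breed controls. Points are changes with bars of 1 SE, filled where called and open where not; dotted lines mark a 2-fold change in either direction. On the left 28 points are filled, 9 to the right of 0 and 19 to the left.

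The ryanodine receptors split. RYR1, the release channel of adult skeletal muscle, fell, whereas probes for RYR3, a form known from developing muscle and from some adult muscles, rose. RYR1 signal was 13.42, 13.96, 14.07 and 13.89 in P21, P54, P56 and P57, and 15.47, 15.61, 15.40, 15.33 and 15.08 in K7, K8, K10, K11 and K12. Every positive animal lay below every control, with a change of -1.54 (SE 0.17, adjusted p = 5.9e-05).

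For RYR3, probe A_73_106819 read 6.39, 7.24, 6.48 and 5.94 in the positive animals and 2.92, 2.43, 2.14, 2.53 and 1.96 in the controls. None of the 5 controls was well above background, so that only a bound can be given: RYR3 was at least 10.3-fold higher (adjusted p = 3.44e-06), the mean of the positive animals being set against the higher of the control probe and the lowest measurable signal on each array. The probe passed the filter only through PCA groups 3 and 4, and group 3 holds the positive animals. Its fold and p are thus a description and no independent support. This bound holds for the processed signal; under normexp the probe was still called, with a change of 1.105. A second RYR3 probe, A_73_114786, read 7.75, 8.45, 7.72 and 7.68 against 5.12, 5.25, 4.61, 4.90 and 4.45, a rise of 3.04 (SE 0.22, adjusted p = 5.78e-06). The third, A_73_101289, rose by 1.48 (SE 0.29, adjusted p = 0.00194), from 4.36 to 5.45 in the controls to 6.10 to 7.36 in the positive animals. The ranges were apart for all 3 RYR3 probes. The second probe lost its call when all 43 arrays were fitted together, and the third under normexp background correction, where its change was 0.45.

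RYR2, the cardiac form, was dim: probe A_73_101747 read 4.46, 4.5, 4.93 and 4.52 in positive animals and 2.67 to 4.28 in controls, of which only 1 was well above background. Its rise of 1.06 (SE 0.30, adjusted p = 0.012) was lost without P56 or K8 and under quantile normalization, normexp (0.14), the series matrix values and the fit of all arrays, and it turned to -0.21 when cyclic loess was run on every pair of arrays.

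**Figure D2:**
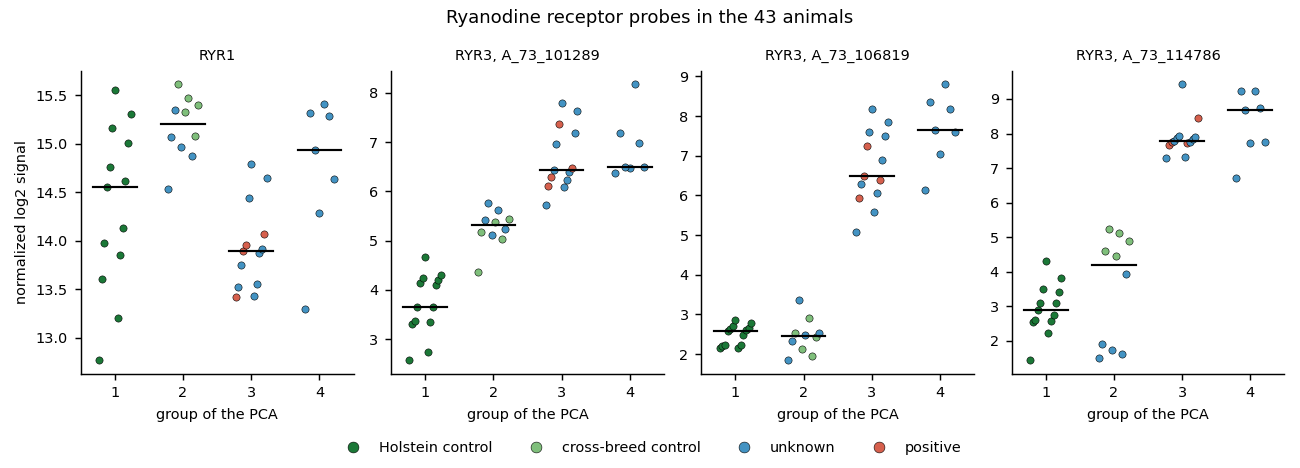
Normalized log2 signal of the RYR1 probe and the 3 RYR3 probes in the 43 animals, by group of the study's PCA. Points are animals, coloured by label group, and black lines are group medians. For RYR3 probe A_73_106819 the medians of groups 3 and 4 were 6.48 and 7.66 and that of group 2 was 2.45.

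Across the PCA groups the RYR3 signal fell into separate ranges. Probe A_73_106819 lay between 1.85 and 3.36 in the 10 animals of group 2 and between 2.16 and 2.87 in the 13 Holstein controls, none of which was well above background. In groups 3 and 4 it lay between 5.09 and 8.18 and between 6.13 and 8.80. The 20 animals of groups 3 and 4 thus lay above the 23 of groups 1 and 2 with a gap of 1.73, and the same held for A_73_114786 with a gap of 1.46. These 2 were the only members with such a split, which 0.587% of all probes showed. Probe A_73_106819 was under the filter's limit of 4 in all animals of groups 1 and 2, so that it passed the filter only through groups 3 and 4.

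On slide 6, which held animals of more than 1 PCA group, animal 269 of group 2 read 2.33 for A_73_106819 and 1.90 for A_73_114786. Animal 36 of group 4 on the same slide read 7.05 and 7.75, and animal 58 read 6.13 and 6.71. Within this slide the animals of group 4 thus lay above the animal of group 2. Set beside the 5 unknown animals of group 2, the cross-breed controls did not share their range for every probe: A_73_114786 read 1.51 to 3.95 in these unknown animals, all below the controls.

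RYR1 did not split in that way. Its medians were 14.55 in group 1, 13.89 in group 3 and 14.93 in group 4, and group 4 ranged from 13.30 to 15.41. The 5 unknown animals of group 2 read 14.53 to 15.35.

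Of the dihydropyridine receptor, the beta and gamma subunits were lower in the positive animals and the voltage sensor was not called. CACNA1S read 8.18, 7.70, 7.76 and 8.21 in the positive animals and 8.39, 7.82, 8.45, 8.64 and 8.35 in the controls, with overlapping ranges and a change of -0.37 (SE 0.20, adjusted p = 0.143). CACNB1, the beta subunit that ties the complex to its membrane site, read 9.53, 9.70, 10.03 and 10.09 against 11.34, 11.07, 11.62, 11.20 and 11.57. It fell by 1.52 (SE 0.18, adjusted p = 7.4e-05), without overlap. In the unknown animals of group 2 CACNB1 read 10.50 to 11.25, in group 3 9.13 to 10.09, and in group 4 8.91 to 9.53.

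CACNG1, the skeletal gamma subunit, was dim in the positive animals (2.45, 2.85, 2.69 and 3.09, with 1 of 4 well above background) and brighter in the controls (5.49, 5.10, 4.59, 4.14 and 5.05). Its change was -2.10 (SE 0.26, adjusted p = 0.000112). CACNA2D1, the alpha2/delta subunit, changed by -1.42 (probe A_73_120985, SE 0.36, adjusted p = 0.00789), but its ranges met, at 3.89 to 5.10 and 5.07 to 6.97. Both calls were lost under normexp, and that of CACNA2D1 also under 75th percentile scaling (-0.91).

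Outside this complex, the probe for CACNA1B, the pore of the neuronal N-type channel, was the only one called higher among the 15 channel probes that passed the filter. It read 15.95, 15.81, 15.40 and 15.33 in the positive animals against 12.96, 13.11, 11.59, 13.84 and 12.39, a rise of 2.84 (SE 0.38, adjusted p = 0.000183) without overlap. The array file describes this probe as an L-type alpha 1B subunit. It matched CACNA1B in RefSeq, but its sequence was not checked, so which transcript it reads is not settled. The probe was well above background on all 43 arrays, with a median of 15.40. CACNA1E, the R-type pore, went the other way. It read 2.93, 2, 2.76 and 2.46, not well above background in any positive animal, against 4.87, 4.93, 5.44, 4.68 and 5.31, and was at least 5.19-fold lower (adjusted p = 1.52e-05), a call lost under normexp.

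The other called channel probes were all lower, and they are named here after their values were seen. CACNG6, a gamma subunit related to CACNG1, read 8.25 to 8.81 in the positive animals against 9.57 to 9.89, a change of -1.15 (SE 0.16, adjusted p = 0.000182), and the unknown animals of group 2 lay at 9.88 to 10.79, mostly above the controls. The T-type pores CACNA1H (-1.72, SE 0.22, adjusted p = 0.000146) and CACNA1G (probe A_73_118958, -1.30, adjusted p = 0.00723) were lower. The other CACNA1G probe, A_73_101137, was too dim for the filter. That probe was well above background in 4 positive animals and in 1 cross-breed control, so that the direction of CACNA1G is not settled. CACNG4 (-1.08, adjusted p = 0.0063), a gamma subunit that also partners glutamate receptors, was lower as well. CACNA2D3 was not called (0.95, adjusted p = 0.027, under 2-fold), but was called higher without P21, K10 or K12 and under loess on pairs of arrays.

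Of the 4 calmodulin and calmodulin-like probes tested, 1 was called. CALML6, a calmodulin-like gene, read 7.10, 6.81, 6.97 and 6.92 against 3.88, 3.57, 3.95, 4.20 and 4.63 in the controls, a rise of 2.90 (SE 0.20, adjusted p = 4.62e-06) without overlap. Its call was lost under loess on pairs of arrays (0.09) and under normexp (0.98). CALML3 was not called (0.16, adjusted p = 0.564).

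Among the kinases, the 2 rises were both forms of CaM kinase I, but the 6 falls included further forms of it, PNCK and CAMK1D. The other falls were both probes of CaM kinase IV, a nuclear kinase, and its upstream kinases CAMKK1 and CAMKK2, the latter on 1 of 2 probes. CAMK1G, a CaM kinase I isoform, read 13.70, 13.17, 13.22 and 13.16 in the positive animals against 11.67, 11.83, 10.40, 11.57 and 11.03. It rose by 2.01 (SE 0.28, adjusted p = 0.000246), without overlap and under every alternative run. CAMK1 rose by 1.67 (SE 0.29, adjusted p = 0.000865), from 3.20 to 4.56 in the controls, of which 2 of 5 were well above background, to 5.36 to 6.15. With loess on every pair of arrays its change was -0.69, and its call was also lost under normexp.

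CAMK4 probe A_73_101175 read 8, 7.07, 7.60 and 7.60 in the positive animals against 9.73, 9.50, 10.02, 9.89 and 10.30, and fell by 2.32 (SE 0.22, adjusted p = 1.91e-05), under every alternative run. The second CAMK4 probe, A_73_116241, was dim and changed by -2.08 (SE 0.41, adjusted p = 0.00195), a call lost under normexp. The kinase that activates CaM kinases I and IV, CAMKK2, read 4.62, 4.70, 4.55 and 4.94 against 6.90, 7.24, 6.84, 6.40 and 6.76 on probe A_73_104016. That change of -2.12 (SE 0.18, adjusted p = 1.02e-05) was not seen on the other CAMKK2 probe, A_73_116958 (0.14, adjusted p = 0.608), and normexp reduced it to -0.90, no longer called.

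Of the rest, also named after their values were seen, CAMKK1 (-1.87, adjusted p = 0.00148), PNCK (-1.44, adjusted p = 0.000195) and CAMK1D (-1.15, adjusted p = 0.0142) were lower. CAMKK1 is the other upstream kinase, and PNCK and CAMK1D are further CaM kinase I isoforms. CaM kinase II, the form best known at the muscle triad, was not called on any of the probes that passed the filter. CAMK2A came nearest, with 13.72 to 14.19 in the positive animals below 14.55 to 15.15 in the controls (-0.93, SE 0.16, adjusted p = 0.001), under 2-fold, and was called without P56 or K12. The CAMK2D probes changed by 0.04 and -0.29, CAMK2G by 0.17 and CAMK2B (A_73_114415) by -0.14, with adjusted p from 0.221 to 0.813. With loess on every pair of arrays CAMK2B (A_73_114415) was higher, at 1.41 (adjusted p = 0.00507).

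The calcineurin chains also diverged. The catalytic chain PPP3CA was lower on both probes. A_73_114042 read 10.58, 10.32, 10.88 and 11 in the positive animals against 12.23, 11.90, 12.88, 11.74 and 12.31, a fall of 1.52 (SE 0.24, adjusted p = 0.000519) without overlap and in every alternative run. A_73_114322 fell by 1.08 (SE 0.23, adjusted p = 0.00298), a call that was lost without P21, P54 or K10. PPP3CB (-0.21, adjusted p = 0.277) and PPP3CC (-0.18, adjusted p = 0.306) were not called.

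The regulatory chain PPP3R1 rose. It read 7.91, 7.52, 7.75 and 8.59 against 5.98, 5.97, 6.06, 6.37 and 6.17, a change of 1.83 (SE 0.21, adjusted p = 7.12e-05), and kept its call in every alternative run. In the unknown animals of group 2 PPP3R1 read 6.90 to 7.76, above all 5 cross-breed controls, and in group 4 it read 5.56 to 6.5. For PPP3CA (A_73_114042) the unknown animals of group 2 read 11.99 to 12.46, within the range of the controls, and group 3 read 9.76 to 11.41.

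NFATC1, a calcineurin target, was lower on probe A_73_104740, with 4.73, 5.11, 5.28 and 5.09 against 6.96, 6.78, 6.40, 7.19 and 6.85 (-1.78, SE 0.18, adjusted p = 3.54e-05), lost under normexp. The unknown animals of group 2 stood with the positive animals here, at 4.41 to 5.31. A second NFATC1 probe changed by -0.85 (adjusted p = 0.0022), under 2-fold. CABIN1, a protein that binds and inhibits calcineurin, was named after its values were seen. It read 8.27 to 9.29 in the positive animals against 9.99 to 10.55 (-1.44, SE 0.21, adjusted p = 0.00035).

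The calcineurin inhibitors RCAN1 and RCAN2 lie outside the rule but belong to the pathway, and they moved in opposite directions. RCAN1, itself a gene that calcineurin induces, read 13.46, 14.18, 13.40 and 12.65 in the positive animals against 16.08, 16.15, 15.76, 16.35 and 15.43 on probe A_73_113443, a fall of 2.53 (SE 0.29, adjusted p = 7.24e-05). Its other probe, A_73_119734, changed by -3.07 (SE 0.35, adjusted p = 6.2e-05). RCAN2 read 13.11, 13.73, 13.18 and 13.21 against 10.30, 11.47, 11.88, 11.91 and 12.05 on probe A_73_107394, a rise of 1.79 (SE 0.33, adjusted p = 0.00136), and rose by 1.69 on A_73_110367 (adjusted p = 0.00218). All 4 changes kept their call in every alternative run, and none of the ranges overlapped. The unknown animals of group 2 stood apart from the controls for RCAN1 (A_73_113443), at 13.27 to 15.32, and below most of them for RCAN2, at 10.18 to 10.61.

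**Figure D3:**
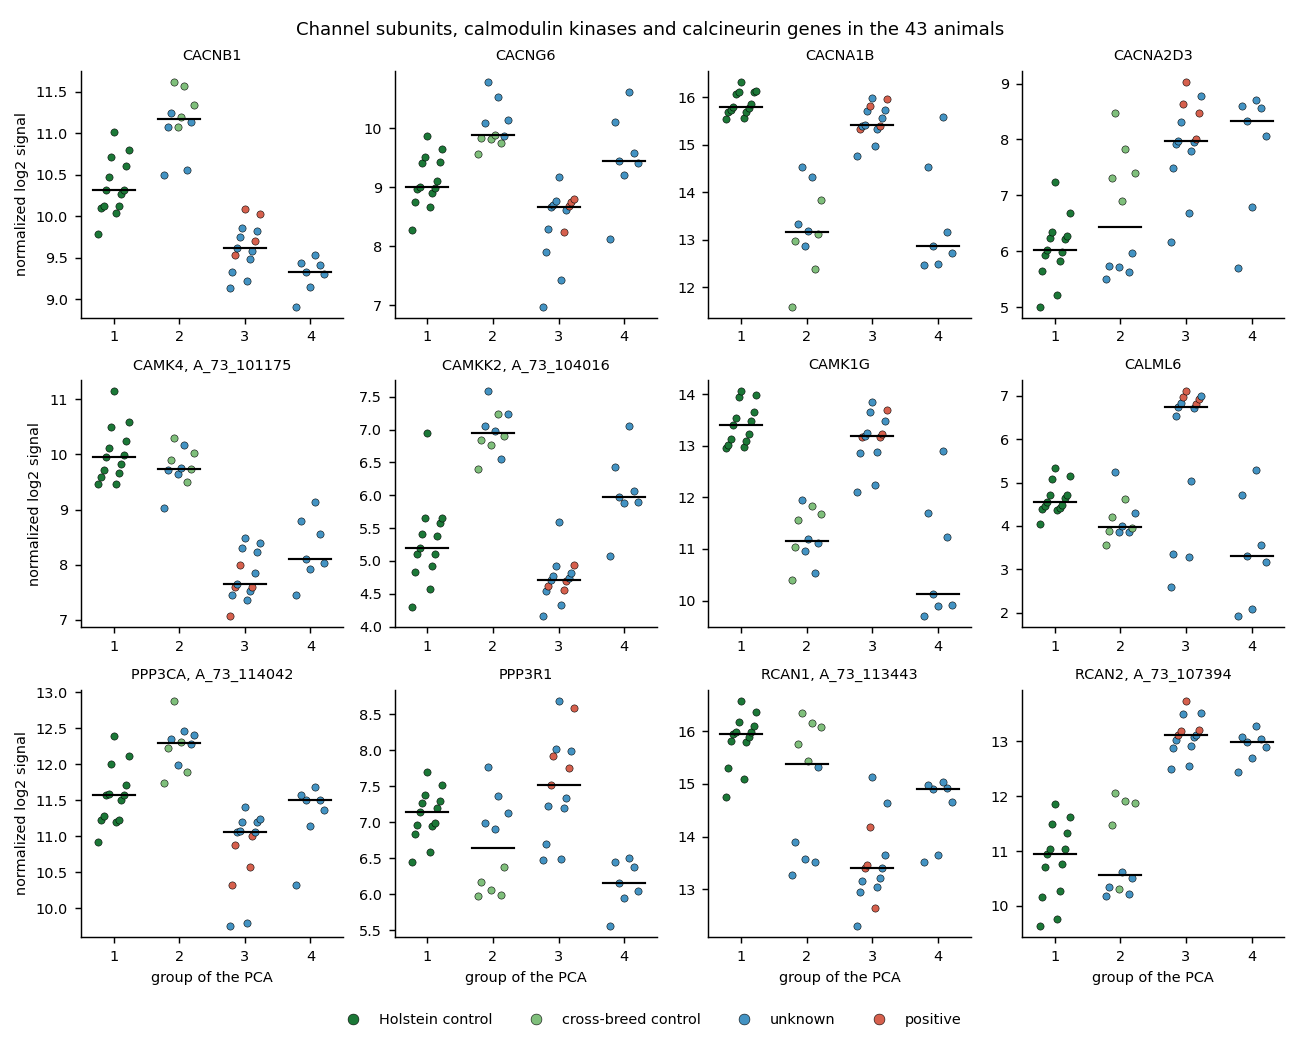
Normalized log2 signal of 12 probes in the 43 animals, by group of the study's PCA, for channel subunits, kinases, CALML6, calcineurin chains and the RCAN inhibitors. Points are animals, coloured by label group, and black lines are group medians. In CAMK4 (A_73_101175) group 3 lay at 7.07 to 8.48 and the 13 Holstein controls at 9.46 to 11.14.

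The remaining class held 23 tested probes for other proteins whose description carried these words, of which 5 were higher and 5 lower. SPSB4, which carries a domain shared with ryanodine receptors, changed by -2.16 (SE 0.67, adjusted p = 0.02). P21 read 6.34 there and the other positive animals 9.53 to 10.44, without P21 the change was -1.28, and the call was lost with slide as a block. CAMSAP1, a calmodulin-regulated protein of the microtubule ends, changed by -1.49 (adjusted p = 0.000165), lost under loess on pairs of arrays and normexp.

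The wider calcium pathway was read from a list of 70 probes outside the rule, of which 60 were tested. In positive animals 5 were higher and 16 lower (35%), against 28.1% of all probes, with a median change of -0.30. The falls lay mostly in the calcium store, where 1 probe was higher and 7 lower of 15, and among buffering and extrusion genes, with 1 higher and 4 lower of 9. Of 9 triad and coupling probes 2 were lower, of 9 for other release and entry 1 was lower, and of 18 for calcineurin targets and partners 3 were higher and 2 lower.

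ATP2A1, the calcium pump of fast fibres, showed the largest change of the tested store probes. It read 13.39, 10.08, 11.68 and 12.99 in the positive animals against 17.69, 17.46, 16.92, 17.23 and 16.48 (-5.12, SE 0.58, adjusted p = 6.37e-05), while ATP2A2, the pump of slow fibres, rose by 1.03 on probe A_73_106338 (adjusted p = 0.00999) and changed by 0.04 on A_73_107013. SLN, a small inhibitor of the pump, read 12.92, 12.71, 11.75 and 13.23 against 15.29 to 15.99 (-2.91, SE 0.28, adjusted p = 2.11e-05). CASQ2, a calcium-binding protein of the store, had a call that was easily lost: its change of -1.90 (adjusted p = 0.0469) was -0.97 without P21, and the call also ended without P56 or any one of the 5 controls. The plasma membrane pump ATP2B2 was not well above background in any positive animal on A_73_113566 and was at least 23.8-fold lower (adjusted p = 4.32e-05); under normexp it was still called, with a change of -1.106. SLC8A3, a sodium-calcium exchanger, was lower on A_73_116407 (-3.48, adjusted p = 6.21e-06, lost under normexp) and 1.47 higher on A_73_105607, so that its direction is not settled. Also lower were JPH2 (-2.01), which spans the triad gap, STIM1 (-1.55 on 1 of its 2 probes), the sensor of store depletion, and MEF2C (-1.24), a transcription factor that acts with NFAT. PPARGC1A, a coactivator of the oxidative programme, rose by 1.82 on A_73_108828 (adjusted p = 8.42e-06), and SRL, a calcium-binding protein of the store, was lower on A_73_116744 (-1.17, adjusted p = 0.000579). IL4R, the receptor of the cytokine IL-4, rose on A_73_113482 (2.58, adjusted p = 1.71e-05) but was not called on its other probe (0.62, under 2-fold), and the first call was lost under loess on pairs of arrays and normexp.

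Markers of fibre and cell types moved with these differences. The lists overlap in part: ATP2A1 and PVALB are also fast fibre markers here, and ATP2A2 is also a slow fibre marker. Of 8 fast fibre probes 7 were lower in the positive animals, with MYH1 (A_73_117636) at -7.32, TNNC2 at -4.49 and MYLPF at -3.35, and PVALB was not called (0.31). The summed fast fibre signal was 16.91, 14.28, 14.89 and 15.78 on the log2 scale in P21, P54, P56 and P57 and 20, 19.74, 19.27, 19.62 and 19 in the controls, with TNNC2 its brightest gene. Of 8 slow fibre probes 4 were higher, with MYL3 at 2.09, and the sum lay at 20.16 to 20.54 against 18.98 to 19.76 (brightest TNNC1). By PCA group the median fast fibre sum was 20.15, 19.46, 15.78 and 16.73 in groups 1 to 4. Single animals of groups 3 and 4 departed from these medians: animals 52 and 81 of group 3 had sums of 19.19 and 19.05, within the range of the cross-breed controls, and animal 49 of group 4 had 18.4. Animal 52 also had the highest reading of group 3 for RYR3 (A_73_106819), 8.18.

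Of 5 adipocyte probes 4 were higher, with FABP4 at 5.23 and ADIPOQ, not well above background in any cross-breed control, at least 3.42-fold higher. The adipocyte sum was 13.33 to 13.74 against 11.14 to 12.22 (brightest LPL). Of 5 endothelial probes 3 were higher, with sums of 12.53 to 13.47 against 11.35 to 12.34 (brightest VWF), and both haemoglobin probes were higher. Of 8 fibroblast probes 1 was higher and 4 lower, of 6 leukocyte probes none was called, of 4 smooth muscle probes 1 was higher, and of 4 nerve and Schwann cell probes 1 was lower. All 7 skeletal muscle probes were well above background on all 43 arrays. In bulk tissue fewer cells of a type and less RNA per cell cannot be told apart, and the part of these markers in the changes above was not tested.

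The second comparison set the 2 kinds of untreated cattle against each other, which differ in breed, age range and experiment. It shares the 5 cross-breed controls with the first, so the directions of these comparisons are not independent. In the Holstein controls 19 of the 75 members were called (25.3%), against 20.6% of all probes. Of these 5 were higher, where 10.9% of all probes were, and 14 were lower, where 9.69% were. Under normexp 2 of 104 members were higher and 3 lower, with a median of -0.07, and 1348 of 21475 probes were called. Under 75th percentile scaling, under quantile normalization and in the fit of all arrays 3 members were higher. The median change was -0.32 over the members and 0.01 over all probes. Ranges did not overlap for 14 members, against 16.2% of all probes.

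The largest rises among the members were those of CACNA1B and CAMK1G, which had also been called higher in the positive animals. CACNA1B read 15.53, 15.80 and 16.32 in the Holstein controls (lowest, median and highest of 13), all above the cross-breed controls, a change of 3.09 (SE 0.24, adjusted p = 2.33e-08). CAMK1G read 12.96, 13.41 and 14.05, a change of 2.12 (SE 0.23, adjusted p = 1.23e-06). Both kept their call in every alternative run. The unknown animals of group 2 read 12.86 to 14.53 for CACNA1B and 10.54 to 11.95 for CAMK1G, below every Holstein control. They shared the scanner of the Holstein controls, but not their slides or scan days.

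The ryanodine receptors were lower or near background. RYR3 probe A_73_106819 was not well above background in any animal of either set. A_73_114786 read 1.45, 2.89 and 4.30 (lowest, median, highest), a change of -1.92 (SE 0.33, adjusted p = 0.000126), and A_73_101289 2.58, 3.66 and 4.67 (-1.36, SE 0.29, adjusted p = 0.00108). Both lost their call under normexp, the first also in the fit of all arrays and the second under loess on pairs of arrays. Over the alternatives their changes ran from -2.31 to -0.075 and from -1.75 to -0.20. These 2 probes were well above background on 28 and 35 of the 43 arrays, so that the size of the changes is uncertain. RYR1 ranged from 12.77 to 15.55 with a median of 14.55 and overlapped the controls (-1.04, SE 0.37, adjusted p = 0.0265), a call lost without K7, K8 or K10 and under 75th percentile scaling.

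Channel subunits gave 1 higher and 4 lower probes. CACNB1 read 9.79, 10.32 and 11.01, below every cross-breed control, and changed by -1.002 (SE 0.17, adjusted p = 0.000131), right at the 2-fold limit, and the call was lost without K10 or K12 and under loess on pairs of arrays or normexp. CACNG1 was not well above background in any Holstein control and was at least 2.75-fold lower (adjusted p = 1.27e-05), a call lost under normexp. CACNA2D3 changed by -1.53 (SE 0.29, adjusted p = 0.000375, lost under normexp) and CACNA1H by -1.15 (adjusted p = 0.000315). The voltage sensor CACNA1S was not called (-0.38, adjusted p = 0.197).

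Of the kinases, CAMKK2 (A_73_104016) read 4.30, 5.20 and 6.94 and changed by -1.55 (SE 0.29, adjusted p = 0.000323, lost under normexp), CAMKK1 by -1.43 (adjusted p = 0.014) and CAMK2B (A_73_114415) by -1.12 (SE 0.24, adjusted p = 0.000996), lost without K11 and under loess on pairs of arrays, normexp and the series matrix values. CAMK4 (A_73_101175) was not called (0.13, adjusted p = 0.673), and CALML6 changed by 0.60 (adjusted p = 0.0157), under 2-fold.

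No calcineurin chain was called. PPP3R1 read 6.44, 7.14 and 7.70, above every cross-breed control, with a change of 0.99 (adjusted p = 0.000139) just under 2-fold, and was called without K11 or K12, under loess on pairs of arrays and with the series matrix values. PPP3CA changed by -0.65 (A_73_114042, adjusted p = 0.0204) and 0.02 (A_73_114322). NFATC1 (A_73_104740) was lower by the test, at 4.33, 5.30 and 5.91 (-1.66, SE 0.22, adjusted p = 1.2e-05, lost under normexp), and so was NFATC3 (-1.07, adjusted p = 0.00189). RCAN1 (A_73_113443) stood near the controls at a median of 15.94 (-0.12), whereas its probe A_73_119734 changed by -1.42 (adjusted p = 0.000627). RCAN2 changed by -0.71 on A_73_107394 (adjusted p = 0.102, called without K7) and by -1.13 on A_73_110367 (adjusted p = 0.0125, not called without K11 or under normexp).

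In the wider pathway 4 probes were higher and 10 lower of 60 (23.3%), against 20.6% of all probes. The calcium buffer PVALB read 9.86, 10.86 and 12.48 against 6.63, 7.62, 6.35, 6.76 and 5.23 (4.53, SE 0.48, adjusted p = 8.46e-07). CASQ2 changed by -3.92 (SE 0.54, adjusted p = 1.49e-05), ATP2A2 (A_73_107013) by -1.75 and SLN by 1.16 (adjusted p = 1.08e-05, lost under quantile normalization and in the fit of all arrays). PPARGC1A rose by 2.65 on A_73_108828, while SLC8A3 (A_73_116407) changed by -2.31, a call lost under normexp, and SRL (A_73_116744) by -1.81. In the remaining class CAMSAP1 changed by -1.71 (adjusted p = 2.93e-05). Of the fast fibre probes 2 were higher and 1 lower, of the slow fibre probes 1 was higher and 2 were lower, and of the adipocyte probes 4 of 5 were higher, as were 5 of 8 fibroblast probes and 1 of 2 haemoglobin probes. None of 5 endothelial probes was called.

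The third comparison asked whether the members set the positive animals apart from the 21 cattle of unknown treatment, which also came from the slaughterhouse and were scanned on the same scanner. No member was called by limma, and 8 of all probes were (0.0489%), all lower. This count changed with the setting, as did the count over all probes. With no filter on dim probes 9 of 104 members were called higher, and 1390 of 21475 probes were called, 72.4% of them higher. With the filter on signal well above background 10 of 89 members were called higher, against 1429 of 18059 probes called (79.2% higher). This filter tested 88, 69 and 89 members in the 3 comparisons, so it depended on the groups compared. Apart from CALML6, all members called under these 2 settings had failed the main filter. CACNG2, CACNG3 and CACNA1C (A_73_113592) among them were well above background in all 4 positive animals. Such probes can enter through the group where they are high, so their calls are no support. The fit of all 43 arrays called 3 of 75 members higher and 3 lower, against 1053 of 16354 probes called (54% higher). At an unadjusted p under 0.05 there were 18 of the 75 members (24%), against 23.8% of all probes. No range was apart, against 0.312% of all probes, and the median change was -0.23 over the members and -0.05 over all probes. The smallest adjusted p among the members was 0.111, for CALML6 (2.50) and SPSB4 (-1.39). CALML6 ranged from 1.92 to 6.99 in the unknown animals, with a median of 4, and the highest of them lay within the range of the positive animals. For RYR3 (A_73_106819), 15 of the 21 unknown animals were well above background, and the change was 0.45 (adjusted p = 0.808).

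The positive animals shared their 2 slides with unknown animals 50, 81, 78 and 79, all placed in group 3. Within these slides the median change of the members was 0.01, and no member was called. Animal 79 had the lowest share of spots above background, 40.21%, and without it the median within slides was 0.04.

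Between PCA groups, given as a description, the ranges of groups 3 and 2 were apart for 17 members (7 above, 10 below), 22.7% against 10.3% of all probes. The 7 above included 2 RYR3 probes, CAMK1G and CACNA1B. The 10 below were CACNB1, CACNG1, CACNG6, CACNA1E, both CAMK4 probes, CAMKK2, PPP3CA, CABIN1 and SPSB4. Between groups 4 and 2 there were 10 (3 above, all RYR3), against 4.6% of all probes, and between groups 3 and 4 there was 1, CABIN1, against 1.8%. Group 1 was apart from group 2 for 4 members, against 5.79%, with CAMK1G and CACNA1B above. Group 3 was apart from group 1 for 6 members, against 3.04%. Among them were the 3 RYR3 probes above, and CAMK4 (A_73_101175) and PPP3CA (A_73_114322) below. The study's larger group B, which is group 3 with animal 76, was apart from group A, the rest of groups 2 and 4, for 10 members (5 above, 5 below), against 4.51%.

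CACNA1B and CAMK1G were high in groups 1 and 3 and low in groups 2 and 4. This order was not particular to them. By medians 7 of the 75 members were at least 2-fold higher in groups 1 and 3 than in groups 2 and 4, against 10.9% of all probes. CACNA1B had medians of 15.80 and 15.41 in groups 1 and 3 and 12.86 in group 4, and CAMK1G 13.41, 13.19 and 10.12. Both overlapped, since single animals of group 4 reached 15.59 and 12.90, and 0 members split groups 1 and 3 from groups 2 and 4 without overlap, against 0.0611% of all probes. RCAN2 (A_73_107394) followed the RYR3 order instead, at 12.50 to 13.73 in group 3 and 12.43 to 13.27 in group 4.

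**Figure D4:**
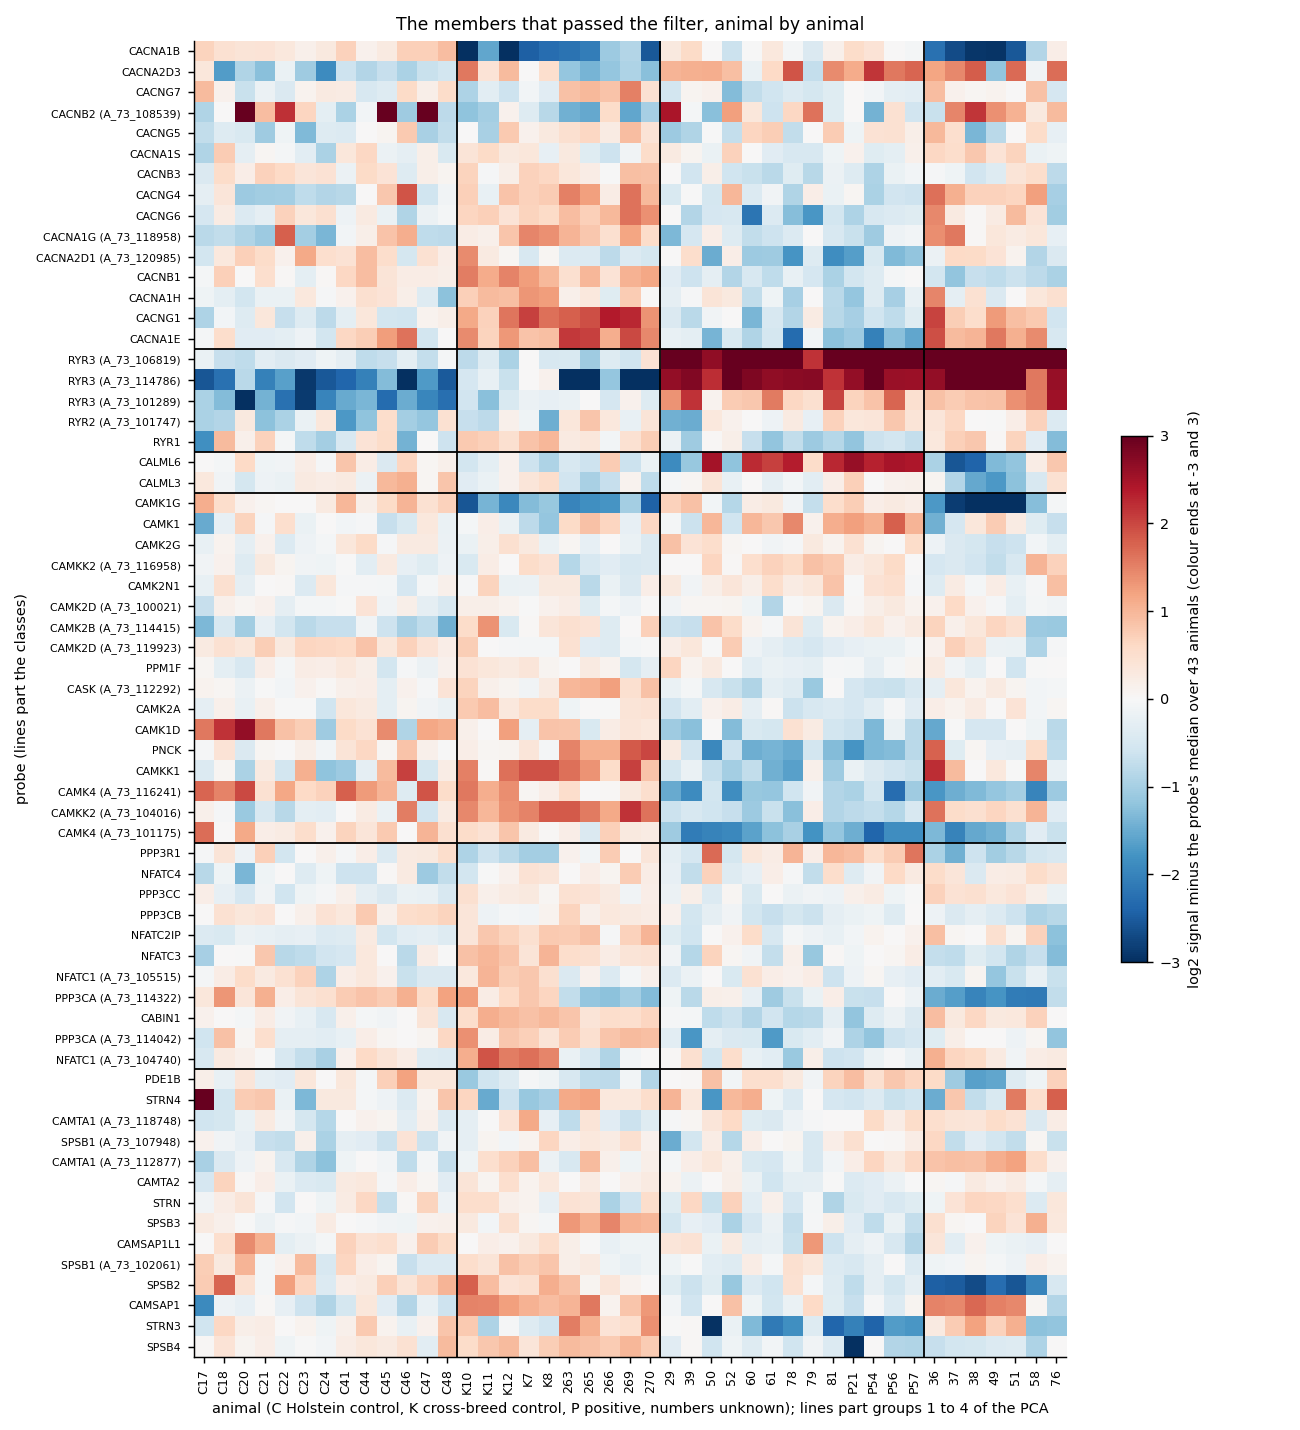
Of the members that passed the filter, 64 (rows, by class) in the 43 animals (columns, by group of the study's PCA), as log2 signal minus the probe's median over the 43 animals, with colours ending at -3 and 3. C marks Holstein controls, K cross-breed controls, P positive animals, and plain numbers unknown animals. The rows of RYR3 (A_73_106819, A_73_114786) are high across groups 3 and 4 and low across groups 1 and 2.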

How the data were processed

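Biceps brachii RNA of 43 animals had been labelled with Cy3 and hybridised to an Agilent bovine array of 44407 spots. The deposited scanner files, made by the authors with Feature Extraction 9.5.1.1, 9.1.3.1 or 9.5.3.1, hold spot intensity in linear units, already background-subtracted (processed signal). The series matrix, deposited by the authors as normalized intensity, served as an alternative after log2 was taken, and its centring stayed unknown. Between 1858 and 11997 non-control spots per array had no usable value in it.

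Log2 signals of the 42990 non-control spots and 320 spike-in spots were normalized with cyclic loess (3 iterations, span 0.7). Spots flagged as outliers were then dropped, and the remaining spots of each probe were averaged. Probes with log2 signal under 4 on at least 30 arrays were removed. Groups came from the sample labels. Comparisons were fitted with lmFit and eBayes (limma 3.58.1, R 4.3.3) on only the animals compared, with Benjamini-Hochberg adjustment over 16354 probes. The comparisons used 4 positive and 5 cross-breed arrays, 13 Holstein and 5 cross-breed arrays, and 4 positive and 21 unknown arrays. Summed marker signals add linear signal before taking log2. A bound ("at least") used the lowest signal well above background on each array. On simulated data with 200 changed probes (log2 change 2), 90%, 91.5% and 81% were called in these comparisons, in the same order.

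The members, the pathway and marker lists and the tests were chosen with earlier results of these data known. The rule for names took the ryanodine receptors, CACNA1S and its partners, CAMK1, CAMK2A to CAMK2G, CAMK4, CAMKK2, the calcineurin chains, RCAN1 and RCAN2 in any case, and per comparison the 10 called members and 6 called pathway genes with the largest change. Others are marked as named after their values were seen, which also holds for the dim probes, for CALML3, NFATC3 and STRN3, and for the pathway genes JPH2, STIM1 and MEF2C. Some members count in the totals but are not reported here by name or drawn. By accession, gene identifier, symbol or synonym, 62 of the 104 members matched RefSeq, and the rest keep the names of the array design. Arrays correlated with each other at 0.870 to 0.991. Alternatives were 75th percentile scaling, quantile normalization, cyclic loess on every pair of arrays, normexp with an offset of 50, the series matrix values, no filter, a filter on signal well above background, a fit of all 43 arrays, slide as a block, and leaving out each animal of a small group.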

Additional observations from a re-analysis of the deposited data

Results flagged for a closer look

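In 7 of 94 sets of values tested, 1 animal of a small group lay far from the others by Dixon's criterion, which chance alone reaches in about 1 in 20 groups. Among the positive animals, P54 was high for RYR3 (A_73_114786) at 8.45, where the others read 7.68 to 7.75, for RCAN2 (A_73_107394) at 13.73 against 13.11 to 13.21, and for IL4R (A_73_113482) at 6.57 against 6.24 to 6.30. P21 was high for CAMK1G at 13.70, where the others read 13.16 to 13.22, and low for CASQ2 at 6.11 against 9.62 to 10.06. P56 was high for RYR2 (A_73_101747) at 4.93 against 4.46 to 4.52. Among the cross-breed controls, K10 was high for CAMK2D (A_73_119923) at 11.26 against 10.46 to 10.52.

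The RYR3, RCAN2, CAMK1G and IL4R calls against the cross-breed controls held without the animal concerned. The CASQ2 call was lost without P21, and the RYR2 call without P56.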

How the results depend on the processing

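Against the cross-breed controls, the positive animals had 14 higher and 24 lower members. Normexp gave 7 and 9 of 104, 75th percentile scaling 17 and 17 of 74, no filter 29 and 30 of 104, and a filter on signal well above background 29 and 23 of 88. Over all probes 1375 of 21475, 4476 of 16078, 7589 of 21475 and 5998 of 17986 were called, in this order. Under the last 3, falls did not clearly outnumber rises among the members. Of the calls over all probes 69.1%, 51.1% and 63.6% were higher there, against 51.1% in the main fit. The median change of -0.58 became -0.17 with 75th percentile scaling, -0.78 with quantile normalization, -0.13 with normexp, -0.33 with no filter and -0.063 with the filter on signal well above background. Leaving out 1 animal gave 13 to 15 higher, 21 to 27 lower and medians of -0.59 to -0.54. Cyclic loess on every pair of arrays turned the direction of CAMK1 (-0.69), CAMK2B (A_73_114415, 1.41) and RYR2 (A_73_101747, -0.21). For the Holstein controls the 5 higher members became 3 in the fit of all 43 arrays, with quantile normalization and with 75th percentile scaling, and 2 with normexp, which left 3 of the 14 lower. Leaving out 1 cross-breed control gave 4 to 6 higher, 13 or 14 lower and medians of -0.32 to -0.26. For the positive against the unknown animals, the fit of all arrays called 3 higher (CALML6 and PPP3R1 among them) and 3 lower members (CACNA1E, SPSB4 and STRN3), no filter called 9 higher and the filter on signal well above background 10. The median of -0.23 became 0.075 with 75th percentile scaling and 0.085 with the filter on signal well above background, and leaving out 1 positive animal gave 0 calls and -0.24 to -0.13. Except where a setting tests fewer or more probes, the cause was not tested.

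There were 52 named probes, not all of them called in the main fit. Normexp ended the call of 14 in the first comparison and of 12 in the second, most of them dim. These are thus a larger share of the calls than of the 52. The median change of all probes, -0.03 in the first comparison, was 0.11 under 75th percentile scaling, -0.13 under quantile normalization and -0.25 under loess on pairs, and the share of higher calls among all calls went from 51.1% to 69.1%, 39% and 33.5% under these settings. It was 63.6% with the filter on signal well above background. In the second, 75th percentile scaling took that median from 0.01 to -0.11 and the share from 52.9% to 35.4%. In the third, all calls rose from 8 to 1053 in the fit of all arrays, 1390 with no filter, 1429 with the other filter and 121 with loess on pairs, where that median went from -0.05 to -0.18. Leaving out animal 79, chosen after seeing the data, changed no call of a member there, with 7 calls over all probes. No paired analysis was possible because the replicate numbers are only accession order and no animal is in more than 1 group. Signal near background limits the dim probes.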

Other observations

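Of the 29 members too dim for the filter, several were well above background in all 4 positive animals and in few or none of the controls. They were picked out after their values were seen, through the group where they are high, so the calls below are a description only. Without the filter, CACNG2 (2.74, adjusted p = 0.0477), CACNG3 (1.76, adjusted p = 0.0461), CACNA1C (A_73_113592, 3.03, adjusted p = 0.0461) and CAMK2B (A_73_110343, 1.79, adjusted p = 0.0469) were called higher by limma in the 4 positive than in the 21 unknown animals. In that fit 9 of the 104 members were called higher, and 1390 of 21475 probes were called, 72.4% of them higher. CACNG2, a gamma subunit known from neurons, read 6.73, 6.62, 6.46 and 5.96 in P21, P54, P56 and P57. It was well above background in 4 of 4 positive animals, in 0 of 5 cross-breed and 0 of 13 Holstein controls, and in 7 of 21 unknown animals. CACNA1C (A_73_113592), the cardiac L-type pore, read 6.79, 6.87, 6.85 and 6.19, with 4 positive, 0 cross-breed, 1 Holstein and 8 unknown animals above background. CACNG3 read 5.40, 4.86, 4.86 and 4.35, with 4, 0, 0 and 6. NFATC2, CAMK2B (A_73_110343, named CAMK2G in the file but described as CAMK2B), CACNA1A and CACNA2D4 were also above background in 4 of 4 positive animals and in none of the controls.

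The 9 unknown animals of group 3 did not share this signal alike. CACNG2 read 5.56 to 6.69 in animals 50, 60, 61, 78, 79 and 81, and 2.74, 2.66 and 2.62 in animals 29, 39 and 52. CALML6 read 2.60, 3.36 and 3.28 in animals 29, 39 and 52, and 6.99, 6.73, 6.54, 6.84, 5.03 and 6.74 in animals 50, 60, 61, 78, 79 and 81. Animal 52 shared slide 11 with animals 60 and 61, whereas slide 12 held only animals 29 and 39. Animals 29, 39 and 52 were high for RYR3 (A_73_106819), at 7.61, 7.85 and 8.18. Their shares of spots well above background were 65.16%, 65.15% and 66.91%, and those of animals 50, 60, 61, 78, 79 and 81 were 97.29%, 82.34%, 74.33%, 83.83%, 40.21% and 82.01%, so that animal 79 had signal with the lowest share; the part of this share in the dim signals was not tested.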
